A study of Mus musculus with 48 samples.

Results

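The caecum of control mice was described here by the level of each gene, with no diet compared. Expression was read from the 4 control arrays of the caecum, among 16 caecum arrays and 48 arrays in all, and 3777 genes were ranked by their mean level over these 4 arrays. The arrays are those of 4 mice, 2 of the control group Ctr2, which was run beside the mice given chlorogenic acids or sesquiterpene lactones, and 2 of the control group Ctr1, run beside the mice given a chicory decoction or fructose. All 4 were male BALB/cOlaHsd mice on standard food, aged 8 weeks at the start, and received 500 µL by daily gavage for 30 days. According to the labels both control groups were given water, while the methods give diluted DMSO for Ctr2 in one place and drinking water in another. By the design text of the series, the 2 control groups belong to different periods of time, so period, solvent and control group cannot be told apart. The methods name colon where RNA was extracted and caecum where the arrays are described, and the sample labels say caecum. The RNA came from whole tissue, in which fewer cells of a type and less RNA per cell cannot be told apart.

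The caecum is the blind pouch at the start of the large intestine, where microbes ferment fibre into short-chain fatty acids. Its lining consists of absorptive colonocytes, which take up salt, water and fatty acids, and of goblet cells, which secrete the mucus that keeps bacteria at a distance, with a few hormone-secreting cells between them. Under this epithelium lie a connective tissue rich in plasma cells, which make the immunoglobulin A passed into the gut, and a coat of smooth muscle. Paneth cells, which secrete antimicrobial alpha-defensins, belong chiefly to the crypts of the neighbouring small intestine.

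A level is the log2 of the deposited array intensity after quantile normalization between the 16 caecum arrays. A difference of 1 is a doubling of the normalized signal, which at the dim end can differ widely from the deposited one. Alb had intensities of 197 and 8 on the Ctr2 arrays but levels of 6.34 and 5.38. Tlr1 had intensities of 420 and 300 on the Ctr1 arrays but levels of 8.06 and 3.88. Probes of different genes differ in brightness for equal amounts of RNA, so the order of the genes is a description of signal and not of molecules. Of the 471 genes with more than 1 probe, 239 (50.7%) had probes that differed by more than 1. The median difference between the brightest and the dimmest probe was 1.05, and the brightest one stood for its gene. Genes named below as bright are among those with wide differences. The dimmest probe averaged 9.89 for Rps24, 10.32 for Actg1, 9.26 for Gapdh, 10.02 for Aqp8 and 8.53 for H2-K1. The rows of 116 genes (3.07% of all) listed transcripts of more than 1 gene, among them 12 of the 100 brightest. The table holds part of the array, so a cell type with no measured marker was not assessed.

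Levels ran from 5.21 to 15.31, with a median of 9.70 and quartiles of 8.93 and 10.86. The brightest 10% of the genes began at a level of 12.18 and the dimmest 10% ended at 8.48. As deposited, the median intensity was 1277 and 971 on the Ctr2 arrays and 1339 and 835 on the Ctr1 arrays, within the range of 186 to 1687 over the 16 arrays. On 3 arrays between 172 and 196 rows lay below an intensity of 300, while Ctr1 replicate 2 held 0 such rows and 116 rows between 300 and 309. The order of the dim genes on that array therefore rested on a few units of intensity. On Ctr2 replicate 2, 19 ranked genes had an intensity below 20, against 0 on each of the 3 other arrays, where the same genes had between 110 and 33477. This limit of 20 was chosen after the values had been seen.

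The brightest gene was Dmbt1, which encodes a secreted scavenger protein of mucosal surfaces that binds bacteria. Its level was 15.37 and 15.11 on the Ctr2 arrays and 15.54 and 15.22 on the Ctr1 arrays. Car1, the carbonic anhydrase of large-intestinal epithelium, had 15.28 and 14.95 on the Ctr2 arrays and 15.37 and 14.84 on the Ctr1 arrays. Zg16, a lectin of goblet cells that binds bacteria in mucus, had 14.80 and 14.76 on the Ctr2 arrays and 14.99 and 14.62 on the Ctr1 arrays. Guca2a, which encodes the hormone guanylin that acts on fluid secretion, had 14.43 and 14.86 on the Ctr2 arrays and 14.39 and 14.45 on the Ctr1 arrays. These 4 genes of the gut lining thus stood among the 25 brightest genes, and at each of them the arrays of the 2 control groups overlapped.

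**Figure D1:**
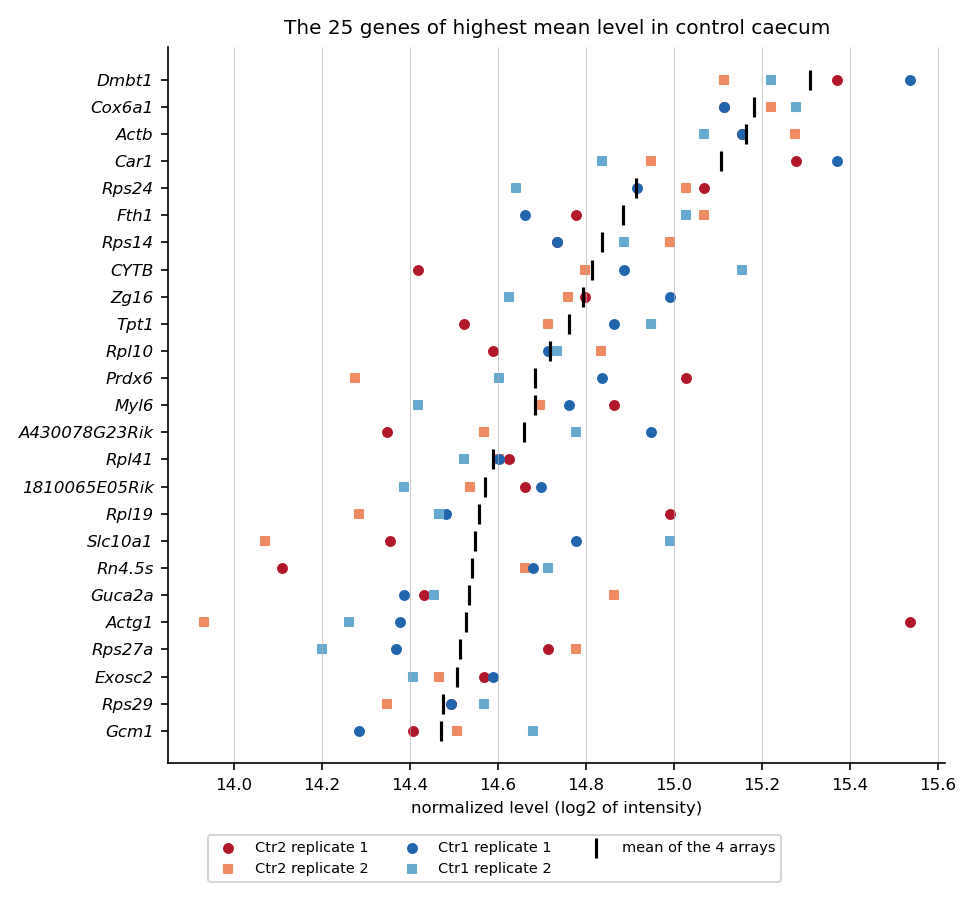
Level (log2 of the normalized intensity) of the 25 genes of highest mean level, 1 row per gene, with 1 point for each of the 4 control arrays and a mark for the mean. Dmbt1 leads with a mean of 15.31, and Actg1 shows the widest spread of the 25 genes, from 13.93 to 15.54.

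Most of the other genes at the top were those that cells of many kinds use. They included Cox6a1, a subunit of cytochrome oxidase (15.18 ± 0.08, SD, n = 4), and Actb, cytoplasmic actin (15.16 ± 0.09). Fth1, the heavy chain of ferritin, had 14.88 ± 0.20, and the mitochondrial gene CYTB had 14.81 ± 0.30. Tpt1, a growth-related cytosolic protein, had 14.76 ± 0.19, and Prdx6, a peroxiredoxin, had 14.69 ± 0.32. Myl6, a myosin light chain, had 14.68 ± 0.19, and Actg1, the other cytoplasmic actin, had 14.53 ± 0.70. Cytosolic ribosomal proteins added 7 genes to the 25: Rps24, Rps14, Rpl10, Rpl41, Rpl19, Rps27a and Rps29, with means between 14.48 and 14.91. Exosc2, a subunit of the RNA exosome, had 14.51 ± 0.08. Rn4.5s, a small repeat-derived RNA of rodents, had 14.54 ± 0.29, and 1810065E05Rik had 14.57 ± 0.14. For 2 of the remaining names the signal cannot be read as that gene. The row named Slc10a1, the bile acid carrier of the liver, lists transcripts of 4 genes (14.55 ± 0.41), and the transcript of the row named A430078G23Rik is that of Wdr31 (14.66 ± 0.26). Gcm1, known as a transcription factor of the placenta, was read at 14.47 ± 0.17 from the brighter of its 2 probes, and the other averaged 11.48, so its reading rests on the choice of probe.

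The brightest signal of the gene rows carried no gene symbol and so took no part in the ranking. It was a probe for the constant region of the immunoglobulin alpha heavy chain. Its deposited intensities were 64987 and 64880 on the Ctr2 arrays and 65485 and 52358 on the Ctr1 arrays. On both Ctr2 arrays and on Ctr1 replicate 1 they lay close to the scanner limit, taken as 65000. The signal may have been cut off there. A second probe for the same chain had a level of 15.27 ± 0.31, and a probe for the immunoglobulin kappa constant region had 14.11 ± 0.29. Jchain, which joins immunoglobulin A into dimers, had levels of 13.60 and 13.36 on the Ctr2 arrays and 13.24 and 13.10 on the Ctr1 arrays. Pigr, the receptor that carries these dimers across the epithelium, had 12.23 and 12.18 on the Ctr2 arrays and 12.67 and 12.97 on the Ctr1 arrays, from a row that lists 3 genes. The chain, its joining protein and its carrier thus all had mean levels above the lower edge of the brightest 10%. For the carrier this rests on the choice of probe, since the other probe of Pigr averaged 11.72, below that edge.

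Of 64 gene lists, 47 had at least 5 measured genes, and each was described by the median percentile of its members in the ranking, where 100 is the brightest end. The median was 75 or more in 15 lists and 25 or less in 2. The list of cytosolic ribosomal proteins stood highest, at 97.0, with 71 of its 80 members in the brightest 10% and all 80 above the median of all genes. Its dimmest members were Rpl22l1, a paralog of a ribosomal protein (11.16 ± 0.09), and Rps21 (10.49 ± 0.73). Of the 100 brightest genes, 36 were cytosolic ribosomal proteins. The 54 mitochondrial ribosomal proteins had a median percentile of 53.7, with 0 in the brightest 10%, and the 41 translation factors had 66.5.

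**Figure D2:**
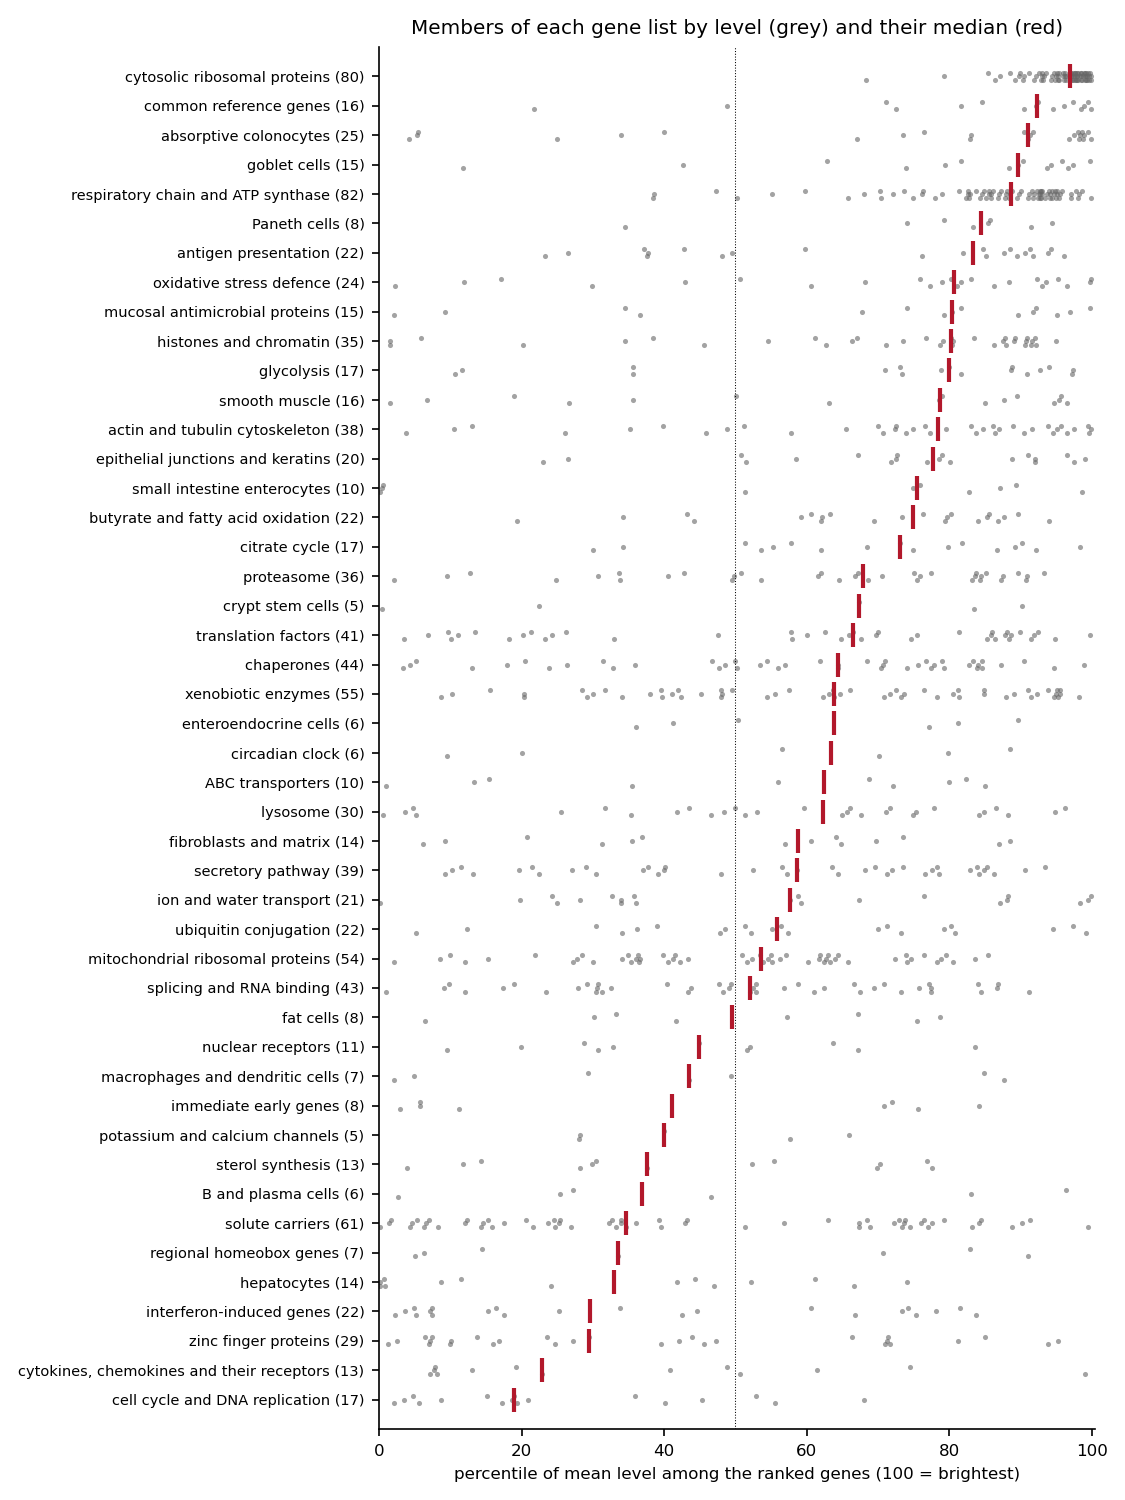
Percentile of the mean level (100 is the brightest gene) for the members (grey points) of the gene lists with at least 5 measured genes, without the list of RIKEN and predicted genes, 1 row per list with the number measured, sorted by the median of the list (red bar). Cytosolic ribosomal proteins lie at the bright end with a median of 97.0 and genes of the cell cycle at the dim end with 19.0.

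Genes of energy metabolism followed. The respiratory chain and ATP synthase had a median percentile of 88.7, with 38 of 82 members in the brightest 10% and 0 in the dimmest. Beside Cox6a1 the brightest were Cox8a (14.06 ± 0.17) and Cox5a (13.84 ± 0.12), subunits of cytochrome oxidase, and Atp5b, a catalytic subunit of ATP synthase (13.91 ± 0.34). The dimmest were Ndufa11 (9.33 ± 0.46) and Ndufs8 (9.32 ± 0.31), subunits of complex I. Glycolysis had 80.0 over 17 members, led by Gapdh (13.61 ± 0.12) and Ldha, lactate dehydrogenase (13.61 ± 0.27). Butyrate and fatty acid oxidation, the pathway by which colonocytes burn the acids made by microbes, had 74.9 over 22 members, with Etfb, an electron carrier of that pathway, at 12.81 ± 0.15 and Acaa2, a thiolase, at 12.14 ± 0.11. The citrate cycle had 73.1 over 17 members, led by Mdh2, mitochondrial malate dehydrogenase (13.94 ± 0.39). Khk, which phosphorylates fructose, was one of the dimmest members of the glycolysis list at 8.51 ± 0.08. Sterol synthesis stood lower, with a median percentile of 37.7 over 13 members, and its brightest gene was Hmgcs1 (11.02 ± 0.26).

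Markers of the large-intestinal epithelium were bright on every array. The lists hold no gene that separates caecum from colon. No other tissue was compared in level, so the label as large intestine was not tested either. The list of small intestine enterocytes had median percentiles of 75.6 and 85.6 on the Ctr2 arrays and 34.8 and 86.7 on the Ctr1 arrays. Of 32 markers of absorptive colonocytes 25 were measured, with a median percentile of 91.0, 14 in the brightest 10% and 3 in the dimmest, and 0 had an SD over 1. The median percentile of the list was 88.2 and 90.9 on the Ctr2 arrays and 89.3 and 91.6 on the Ctr1 arrays. Phgr1, a small protein of gut epithelium, had 14.27 ± 0.16, and Muc13, a mucin of the cell surface, had 14.21 ± 0.22. Cyp2c55, a cytochrome P450 of the large intestine, was the brightest of 55 xenobiotic enzymes at 13.89 ± 0.24, and Aqp8, a water channel of colonocytes, had 13.97 ± 0.18. At the dim end were Slc51b, a subunit of the bile acid exporter (8.24 ± 0.49), and Mall (8.16 ± 0.21). Slc51a, the partner subunit of Slc51b in that exporter, stood in the brightest 10% at 12.36 ± 0.32. Its other probe averaged 9.78, so that reading rests on the choice of probe, and levels of different probes have no common scale. Keratins of simple epithelium were bright, with Krt8 at 14.31 ± 0.41, Krt20 at 13.67 ± 0.19, Krt19 at 13.37 ± 0.10 and Krt18 at 12.49 ± 0.34. The intestinal homeobox genes Cdx1 (12.32 ± 0.47) and Cdx2 (11.46 ± 0.35) led the 7 regional homeobox genes, whose dimmest members were Hoxb9 (8.31 ± 0.66) and Hoxb6 (8.23 ± 0.32). The median of that list was at the 33.6 percentile.

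Goblet cells came close behind. Of 25 markers 15 were measured, with a median percentile of 89.7, 7 in the brightest 10% and 0 in the dimmest, and the median was 89.7 and 87.9 on the Ctr2 arrays and 89.6 and 87.9 on the Ctr1 arrays. After Zg16 the brightest were Clca1, a secreted protease of mucus (13.65 ± 0.22), Tff3, a trefoil peptide that protects the lining (13.41 ± 0.20), and Spink4, a secreted protease inhibitor (13.15 ± 0.17). Muc2, the mucin that forms the gel itself, was read lower and less evenly, at 9.65 and 10.91 on the Ctr2 arrays and 11.91 and 10.65 on the Ctr1 arrays. The transcription factors of the lineage were the dimmest members, with Spdef at 9.44 ± 1.45 and Atoh1 at 8.55 ± 0.56. Spdef had 9.35 and 7.85 on the Ctr2 arrays and 11.37 and 9.20 on the Ctr1 arrays, the only goblet cell marker with an SD over 1.

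Defence genes other than those of Paneth cells were mostly on the bright side. Antigen presentation had a median percentile of 83.3 over 22 members, 6 of them in the brightest 10%, with B2m, the light chain of class I molecules, at 13.29 ± 0.10, H2-Eb1, a class II chain, at 12.85 ± 0.44 and H2-K1, a class I chain, at 12.79 ± 0.39. Mucosal antimicrobial proteins had 80.3 over 15 members, led by Zg16, by Lypd8, which holds flagellated bacteria off the colonic lining (13.49 ± 0.19), and by Sprr2a2, a small proline-rich protein (13.02 ± 0.24, from a row of 2 genes). Their dimmest members were Saa3, a serum amyloid A (8.46 ± 0.24), and Lyz2, the lysozyme of macrophages (7.93 ± 0.38). Oxidative stress defence had 80.6 over 24 members, led by Fth1 and Prdx6, and its dimmest member was Cat, catalase (7.97 ± 0.37).

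Inducible defence genes stood lower. Interferon-induced genes had a median percentile of 29.5, with 0 of 22 in the brightest 10% and 7 in the dimmest, Ifitm1 among them (7.98 ± 0.40). With the dimmest 25% of probes left out, which removes dim members, the median of the list was 64.4. Cytokines, chemokines and their receptors had 22.9 over 13 members, with 1 in the brightest 10% and 4 in the dimmest, and 41.4 with the dimmest 25% of probes left out. That 1 gene was Cxcl11, a chemokine induced by interferon (14.29 ± 0.15), whose other probe averaged 7.83, a difference of 6.45 between probes of 1 gene name. The bright reading of Cxcl11 therefore rests on the choice of probe.

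Among the lists of cell types outside the epithelium and its Paneth cells, smooth muscle had the highest median percentile. Of 26 markers 16 were measured, with a median percentile of 78.7, 4 in the brightest 10% and 2 in the dimmest. Tagln had 13.36 ± 0.35, Myl9 13.13 ± 0.27, Csrp1 13.07 ± 0.24 and Cnn1 12.94 ± 0.08, all parts or partners of the contractile apparatus, while Des, the muscle intermediate filament, was at 7.82 ± 0.38. Fibroblasts and matrix had 58.8 over 14 markers, led by the matrix proteins Dcn (12.03 ± 0.29) and Sparc (11.80 ± 0.25), with Col1a1, a chain of type I collagen, at 8.45 ± 0.39. Enteroendocrine cells had 63.8 over 6 markers. Their brightest was Sct, the hormone secretin (12.15 ± 0.31), and their dimmest were Gcg, which encodes glucagon-like peptides (9.40 ± 0.24), and Chgb, a granule protein (9.26 ± 0.55).

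Macrophages and dendritic cells had 43.5 over 7 markers, with 0 in the brightest 10% and 2 in the dimmest. The brightest was Csf3r, a cytokine receptor, at 11.90 ± 0.36. The dimmest were C1qa, a complement chain, at 8.22 ± 0.46 and Lyz2 at 7.93 ± 0.38. B and plasma cells had 36.9 over 6 markers. Jchain was followed by Xbp1, a transcription factor of secretory cells (11.47 ± 0.35), and the B cell receptor chain Cd79b (9.58 ± 0.45). Next came Mzb1, a protein of plasma cells (8.99 ± 0.38), and the B cell genes Ms4a1 (8.94 ± 0.18) and Cd79a (8.02 ± 0.66). Genes of B cells and of plasma cells were thus mixed in this order. The bright immunoglobulin probes, which carry no gene symbol, are not part of this list. Crypt stem cells had 67.4 over 5 of 20 markers, with 1 in the brightest 10% and 1 in the dimmest. Ephb3, a receptor that sorts crypt cells, was the brightest at 12.21 ± 0.23. Ascl2 was the dimmest, with 8.41 and 7.97 on the Ctr2 arrays and 8.23 and 3.88 on the Ctr1 arrays. Fewer than 5 markers were measured for endothelium (3), enteric neurons and glia (2), T and innate lymphoid cells (2) and red blood cells (4), and 0 for tuft cells, mast cells and eosinophils, neutrophils, pancreatic acinar cells, stomach epithelium, skeletal muscle and male germ cells.

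**Figure D3:**
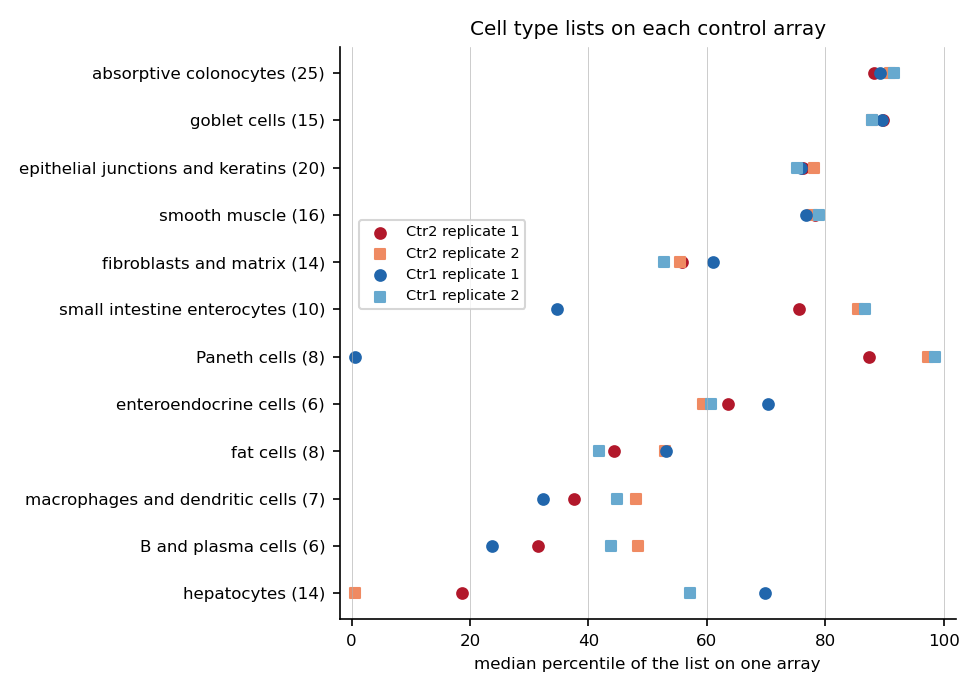
Median percentile (100 is the brightest gene) of the cell type lists with at least 6 measured markers, and of epithelial junctions and keratins, on each of the 4 control arrays (1 point each). Colonocytes and goblet cells lie between 87.9 and 91.6 on all 4 arrays, while Paneth cells lie at 0.6 on Ctr1 replicate 1 and between 87.3 and 98.6 on the others.

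Genes of dividing cells had low levels. Cell cycle and DNA replication had a median percentile of 19.0 over 17 of 60 genes, with 0 in the brightest 10% and 5 in the dimmest, and 32.1 with the dimmest 25% of probes left out. Its brightest members were Pcna, the sliding clamp of DNA synthesis (10.48 ± 0.08), and Birc5, a protein of dividing chromosomes (9.90 ± 0.11). Its dimmest were the mitotic genes Plk1 (8.11 ± 0.14) and Cdca8 (7.95 ± 0.79). Zinc finger proteins had 29.5 over 29 members with 7 in the dimmest 10%, and solute carriers 34.6 over 61 members with 10 in the dimmest 10%. With the dimmest 25% of probes left out these lists had 58.2 and 57.9, above the median of the genes kept.

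The 10 dimmest genes differed widely between the arrays. Plod2, a collagen-modifying enzyme, came last with 2.29 and 6.12 on the Ctr2 arrays and 2.29 and 10.12 on the Ctr1 arrays. Above it came Cubn, a receptor of ileal and kidney epithelium (6.32 ± 1.64), the small nuclear RNA Rnu2-10 (6.33 ± 2.63) and Mup-ps16, a pseudogene of the major urinary proteins (6.40 ± 2.50). Apoa1, an apolipoprotein of liver and small intestine, had 4.86 and 8.24 on the Ctr2 arrays and 4.62 and 8.94 on the Ctr1 arrays. Slc26a6, an anion exchanger, had 6.80 and 8.37 on the Ctr2 arrays and 3.10 and 8.57 on the Ctr1 arrays, and Ahsg, a plasma protein of the liver, had 4.93 and 4.64 on the Ctr2 arrays and 9.15 and 8.88 on the Ctr1 arrays. The others were Mup5 (6.99 over the 3 arrays that measured it), Purb (7.01 ± 1.42) and Fam107a (7.01 ± 1.31). At 6 of these 10 genes, Plod2, Cubn, Rnu2-10, Apoa1, Slc26a6 and Fam107a, both arrays numbered 2 stood above both numbered 1 in level. This was so at 762 of 3773 genes (20.2%). At Plod2 it held for the normalized levels only. The deposited intensities of Plod2 were 29 and 28 on the Ctr2 arrays and 35 and 1022 on the Ctr1 arrays. At Ahsg and Mup-ps16 both Ctr2 arrays stood below both Ctr1 arrays, as at 519 of 3773 genes (13.8%). At Purb both Ctr2 arrays stood above both Ctr1 arrays, as at 741 of 3773 genes (19.6%). Of 7 E1A spike-in control features 6 were also brighter on both arrays numbered 2. The median deposited intensity of the feature a22 was 405 and 1617 on the Ctr2 arrays and 299.5 and 1635.5 on the Ctr1 arrays, and that of the brighter n11 was 8739.5 and 24247.5 on the Ctr2 arrays and 6460.5 and 25216.5 on the Ctr1 arrays. The part of this difference in the order of the genes was not tested.

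For most genes the 4 arrays agreed closely. The median SD of a gene was 0.256 (quartiles 0.174 and 0.376), and 3311 genes (87.7%) had an SD of 0.5 or less. Across genes, the 6 pairs of arrays correlated with Pearson's r between 0.844 and 0.929 and Spearman's rho between 0.865 and 0.934, which are descriptions, since genes are not independent replicates. The lowest pair was Ctr2 replicate 2 with Ctr1 replicate 1, and the highest Ctr2 replicate 1 with Ctr1 replicate 1, so the arrays of one control group were not the most alike. Each pair shared 77 to 82 of its 100 brightest genes, and 67 genes were among the 100 brightest on all 4 arrays.

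The spread was widest among dim genes. The median SD was 0.423 in the dimmest 10% and between 0.222 and 0.265 in the 9 brighter groups of like size. An SD over 1 was found for 111 genes (2.94%), 62 of them in the dimmest 10%. In 98 of 110 such genes with 4 values, the array farthest from the rest lay below it, in 7 and 33 genes on the Ctr2 arrays and in 28 and 30 on the Ctr1 arrays.

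**Figure D4:**
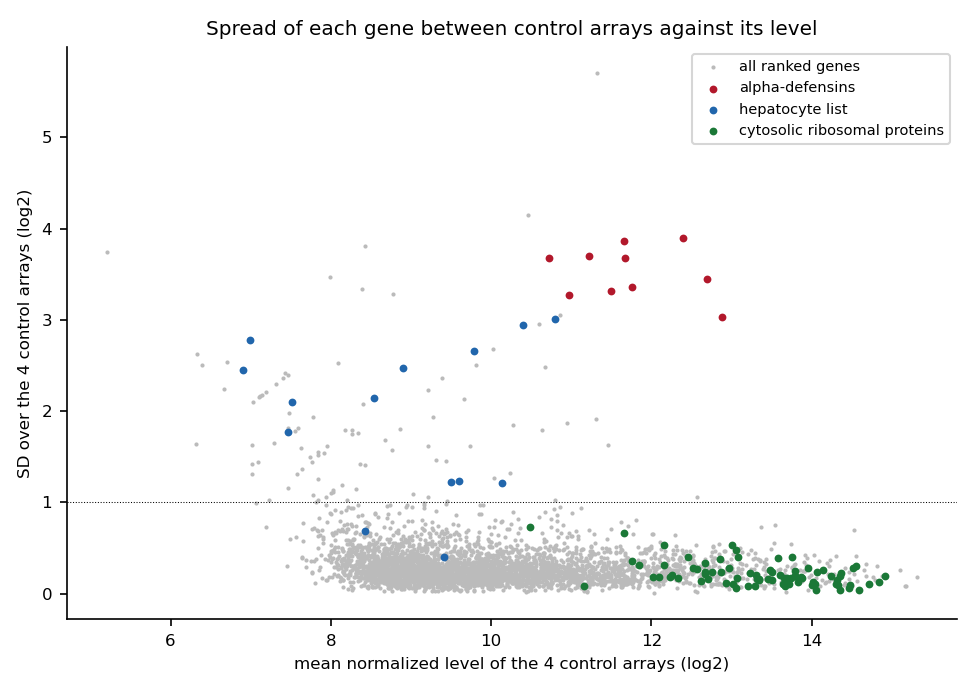
SD of each gene over the 4 control arrays against its mean level (log2), 1 point per gene, with alpha-defensins in red, the hepatocyte list in blue and cytosolic ribosomal proteins in green. Most points lie at an SD of 0.5 or less, while all 10 alpha-defensins, 12 of 14 hepatocyte markers and 0 of 80 ribosomal proteins lie above 1 (dotted line).

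The steadiest genes at or above the median level were Ndufv3 (12.03, SD 0.007) and Atp5c1 (12.57, SD 0.015), subunits of complex I and of ATP synthase, Tmbim1, a membrane protein (10.43, SD 0.016), Tmsb4x, the actin-binding thymosin (13.68, SD 0.021), and Spg7, a mitochondrial protease (11.19, SD 0.021). Common reference genes had a median percentile of 92.4 over 16 of 22. Ppia (14.21 ± 0.30), Rplp0 (14.02 ± 0.13), Gapdh and B2m were in the brightest 10%, while Hprt (10.64 ± 0.18), Tuba1a (9.67 ± 0.47) and Tfrc (8.85 ± 0.37) were not. Actg1 had 15.54 and 13.93 on the Ctr2 arrays and 14.38 and 14.26 on the Ctr1 arrays, and Eef1a1, an elongation factor, had 12.27 and 11.95 on the Ctr2 arrays and 13.04 and 12.95 on the Ctr1 arrays.

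Alpha-defensins, which Paneth cells secrete against bacteria, made up most of the genes of widest spread. Of the 10 genes of largest SD at or above the median level 8 were alpha-defensin genes. Defa23 had 13.57 and 14.62 on the Ctr2 arrays and 6.60 and 14.76 on the Ctr1 arrays. Defa2 had 11.95 and 13.25 on the Ctr2 arrays and 5.80 and 13.88 on the Ctr1 arrays. The same order was found in the whole family, with all 10 measured genes lowest on Ctr1 replicate 1, 9 of them highest on Ctr1 replicate 2 and all 10 with an SD over 1. Their median level was 12.22 and 13.75 on the Ctr2 arrays and 6.48 and 14.21 on the Ctr1 arrays. The genes are near-identical copies, and 4 of the rows list several of them, so the 10 readings are not independent and cannot be assigned to single copies.

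To show how alike the copies are near their start sites, the RefSeq promoters (GRCm38.p6) of 3 alpha-defensins with a very low reading on Ctr1 replicate 1 are given, from 100 bases before the start site to 20 bases from it, with the letters TATAAA in capitals. They lie on the + strand at chr8:21054940-21055059 (Defa23), chr8:21378417-21378536 (Defa2) and chr8:21427328-21427447 (Defa36).
Defa23: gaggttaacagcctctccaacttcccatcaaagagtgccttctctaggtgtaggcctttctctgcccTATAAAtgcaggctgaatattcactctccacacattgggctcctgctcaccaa
Defa2: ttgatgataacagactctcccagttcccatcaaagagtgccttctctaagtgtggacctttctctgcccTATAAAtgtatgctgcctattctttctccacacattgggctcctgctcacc
Defa36: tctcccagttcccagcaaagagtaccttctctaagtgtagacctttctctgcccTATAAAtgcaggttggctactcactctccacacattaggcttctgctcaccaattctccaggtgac
Over 105 bases aligned at TATAAA, Defa23 and Defa2 were identical at 94 (89.5%), and Defa36 was identical to each of them at 93 (88.6%). TATAAA began 33, 31 and 46 bases before the annotated starts of Defa23, Defa2 and Defa36.

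Other genes of Paneth cells and of the small intestine had their lowest reading on the same array. Pla2g2a, a secreted phospholipase, had 9.22 and 10.71 on the Ctr2 arrays and 6.05 and 10.86 on the Ctr1 arrays. Itln1, a lectin, had 10.40 and 11.30 on the Ctr2 arrays and 9.58 and 11.91 on the Ctr1 arrays, and Lyz1, the Paneth cell lysozyme, had 10.99 and 11.11 on the Ctr2 arrays and 10.66 and 11.83 on the Ctr1 arrays. Lyz1 thus varied far less than the defensins. Over the 8 of 43 Paneth cell markers measured, the summed deposited intensity was 51898 and 98620 on the Ctr2 arrays and 4885 and 131832 on the Ctr1 arrays, and the median percentile over the 4 arrays was 84.4. It was 96.0 without Ctr1 replicate 1, 73.5 without Ctr1 replicate 2, 82.1 without Ctr2 replicate 1 and 76.8 without Ctr2 replicate 2.

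Of 21 markers of small intestine enterocytes 10 were measured, and their median percentile was 75.6 and 85.6 on the Ctr2 arrays and 34.8 and 86.7 on the Ctr1 arrays. Fabp6, the bile acid-binding protein of the ileum, had 11.19 and 12.71 on the Ctr2 arrays and 6.44 and 13.09 on the Ctr1 arrays. Anpep, a brush border peptidase, had 10.76 and 12.18 on the Ctr2 arrays and 8.37 and 12.46 on the Ctr1 arrays. The order was that of the defensins at both genes. Fabp2, a fatty acid-binding protein that led the list, was even, at 14.32 and 14.16 on the Ctr2 arrays and 13.96 and 14.09 on the Ctr1 arrays. The part of ileal tissue in these readings was not tested.

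**Figure D5:**
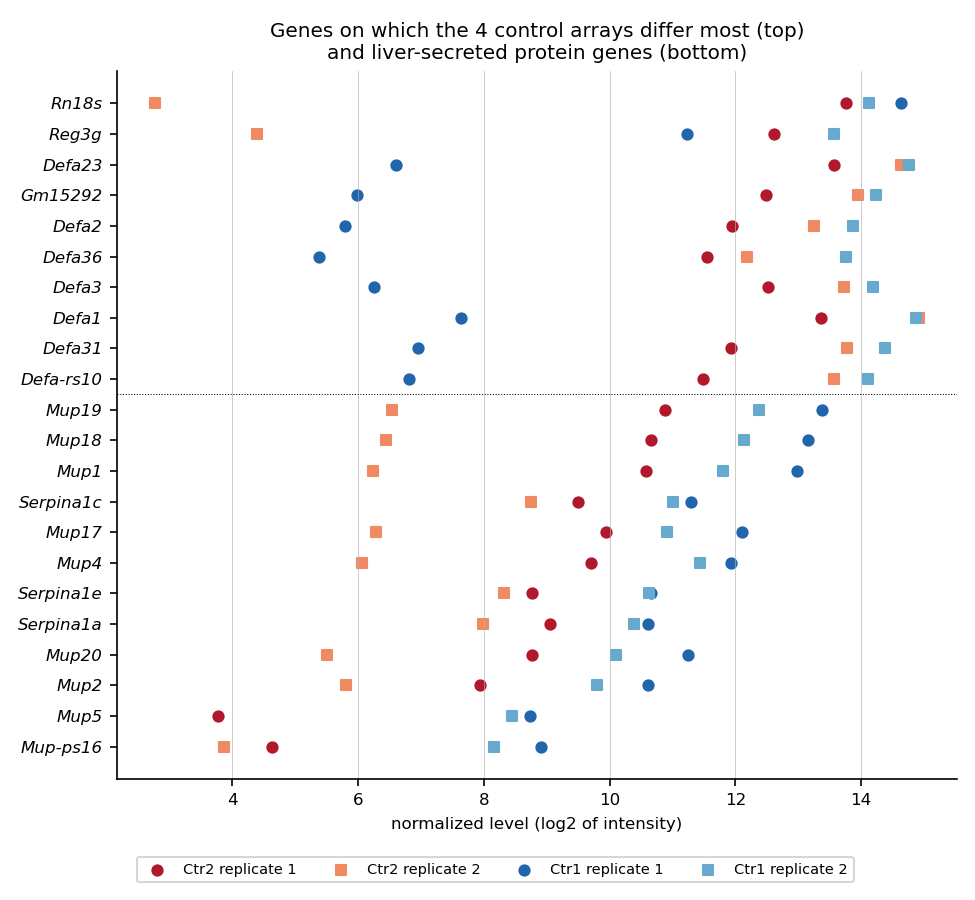
Level (log2) of the 10 genes of largest SD among those at or above the median level, and below them of the genes of the major urinary proteins and the Serpina1 family, 1 row per gene, with 1 point for each control array (Mup5 has 3). The alpha-defensin genes share a low point on Ctr1 replicate 1, while Rn18s and Reg3g have theirs on Ctr2 replicate 2.

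The other 2 genes of largest SD were low on another array. Reg3g, an antibacterial lectin of gut epithelium, had 12.62 and 4.40 on the Ctr2 arrays and 11.23 and 13.57 on the Ctr1 arrays, where the deposited intensities were 8397 and 3 on the Ctr2 arrays and 3448 and 11779 on the Ctr1 arrays. Rn18s, the 18S ribosomal RNA, had 13.75 and 2.78 on the Ctr2 arrays and 14.62 and 14.12 on the Ctr1 arrays. Both belong to the 19 genes with an intensity below 20 on Ctr2 replicate 2, and what lowered their reading there was not tested. Without that array Reg3g lay between 11.23 and 13.57, which is still a wide range.

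Proteins made by the liver also varied widely. The 9 genes of the major urinary proteins, pheromone carriers secreted by the liver, all had an SD over 1, all were highest on Ctr1 replicate 1, and 8 were lowest on Ctr2 replicate 2, which gave no value for the other, Mup5. Mup19 had 10.87 and 6.55 on the Ctr2 arrays and 13.38 and 12.37 on the Ctr1 arrays. Mup4 had 9.70 and 6.06 on the Ctr2 arrays and 11.93 and 11.44 on the Ctr1 arrays. These genes too are near-identical copies, and 5 of their rows list several genes. Alb, serum albumin, had 6.34 and 5.38 on the Ctr2 arrays and 10.11 and 8.22 on the Ctr1 arrays, and Serpina1c, an antitrypsin, had 9.50 and 8.75 on the Ctr2 arrays and 11.30 and 11.01 on the Ctr1 arrays. At Mup19, Mup4, Alb and Serpina1c both Ctr2 arrays lay below both Ctr1 arrays, as at 519 of 3773 genes (13.8%).

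Over the 14 of 33 hepatocyte markers measured, the summed deposited intensity was 10668 and 2350 on the Ctr2 arrays and 50589 and 19916 on the Ctr1 arrays, and 12 markers had an SD over 1. The median percentile of the list was 33.0 over the 4 arrays, 51.4 without Ctr2 replicate 2, 17.1 without Ctr1 replicate 1, 20.8 without Ctr1 replicate 2 and 35.2 without Ctr2 replicate 1. The part of liver RNA in these readings was not tested. The array with the highest liver proteins, Ctr1 replicate 1, was the one with the lowest alpha-defensins. The other arrays did not follow this order. Ctr1 replicate 2 had the next highest summed intensity of hepatocyte markers (19916) and the highest median level of alpha-defensins (14.21).

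The control groups were compared to see how far the 2 sets of controls agree. In one limma fit over the 16 caecum arrays, 0 of 3777 genes were called at an adjusted p under 0.05 in either direction (0% each), and 226 (5.98%) had an unadjusted p under 0.05. Both Ctr2 arrays stood above both Ctr1 arrays at 741 of 3773 genes (19.6%) and below them at 519 (13.8%). Gla, an alpha-galactosidase of lysosomes, had the smallest p, with 12.45 and 11.60 on the Ctr2 arrays and 8.35 and 10.14 on the Ctr1 arrays. The difference of Ctr2 minus Ctr1 was 2.78 at Gla (standard error 0.45, adjusted p = 0.109 from limma). Pde4c, a phosphodiesterase, came next with 10.33 and 10.08 on the Ctr2 arrays and 11.05 and 11.30 on the Ctr1 arrays, a difference of -0.97 (standard error 0.18, adjusted p = 0.173 from limma). Neither passed the threshold, and with 2 arrays a group a missed threshold does not show that the groups were equal.

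The count depended on single arrays. Leaving out Ctr1 replicate 1 gave 35 genes higher and 1 lower in Ctr2, leaving out Ctr2 replicate 1 gave 0 higher and 17 lower, leaving out Ctr1 replicate 2 gave 1 higher and 0 lower, and leaving out Ctr2 replicate 2 gave 0. The lower gene of the first was Pde4c and the higher gene of the third was Gla, which was also among the 35. Among the 35 were Tlr1, a receptor for bacterial lipoproteins, and Ascl2, a transcription factor of crypt stem cells, which both lay at 3.88 on Ctr1 replicate 2, the lone Ctr1 array of that fit. Among the 17 were Rn18s and Sec61a1, a channel subunit of the endoplasmic reticulum, whose intensities were 1 and 2 on Ctr2 replicate 2, the lone Ctr2 array. In such a fit the lone array is assumed to vary like the other groups.

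RefSeq promoters of 300 bases, from 250 before the start site to 50 from it, were matched for 2996 of the ranked genes (79.3%). On either strand, TATAAA was present in 13.3% of promoters of the brightest 10%, against 5.19 to 13.5% in the 9 dimmer groups of like size, 9.15% of all ranked genes and 14.2% of the 27025 promoters of the table. The letters GGGCGG, a GC box, were present in 50.2% of promoters of the brightest 10%, against 60.9 to 69.9% in the 9 dimmer groups, 63.7% of all ranked genes and 35.9% of the table. GGGCGG was thus rarer in the brightest 10% than in the other ranked genes but more frequent than in the whole table, while the share of TATAAA lay within the range of the others. Promoters of 22 colonocyte genes held GGGCGG in 18.2% and TATAAA in 22.7%. Promoters of 59 cytosolic ribosomal protein genes held CCGGAAG, the core of an ETS site, in 37.3%, against 20.4% of all ranked genes and 9.12% of the table.

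One bright gene of each kind and the variable gene Reg3g are shown as examples, from 100 bases before the start site to 20 bases from it, with TATAAA as well as CCGGAAG or the GC box, and the reverse complement of each, in capitals. Guca2a, of the colonocytes, lies on the + strand at chr4:119637632-119637751, Rpl41, of the ribosome, on the - strand at chr10:128549149-128549268, and Reg3g on the - strand at chr6:78468855-78468974.
Guca2a: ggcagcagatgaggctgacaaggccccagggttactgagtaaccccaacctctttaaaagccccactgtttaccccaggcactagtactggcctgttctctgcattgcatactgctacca
Rpl41: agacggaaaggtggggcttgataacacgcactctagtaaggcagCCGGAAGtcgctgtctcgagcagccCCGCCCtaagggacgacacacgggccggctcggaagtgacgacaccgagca
Reg3g: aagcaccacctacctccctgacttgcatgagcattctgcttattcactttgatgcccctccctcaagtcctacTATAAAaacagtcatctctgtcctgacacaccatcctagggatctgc
The window of Guca2a held 0 of these motifs, that of Rpl41 held CCGGAAG starting 56 bases and CCGCCC starting 31 bases before the start site, and that of Reg3g held TATAAA starting 27 bases before it. A match is a description of letters and not of a bound factor.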

How the data were processed

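RNA of caecum was measured on one-colour Agilent arrays. The authors scanned the arrays and deposited intensity values on a linear scale, as whole numbers in 1 table per tissue. The methods name GenePix Pro and quantile normalization, the labels name Agilent Feature Extraction, and a genome build is not given in the sources used here. The caecum table has 6214 rows, of which 227 control feature rows and 878 rows with no gene symbol stayed out of the ranking.

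Values at or below 0 were set to missing, which left 4 genes without a value on Ctr2 replicate 2. The others were log2-transformed and quantile-normalized over the 16 caecum arrays, since the array medians differed. Repeated spots of a probe were averaged, and the probe of highest mean over the control arrays stood for its gene. Symbols of 86 genes were updated through RefSeq, and 4 gene names that a spreadsheet had turned into dates were left as they are. Ctr2 was compared with Ctr1 in limma 3.58.1 under R 4.3.3 (lmFit, eBayes, Benjamini-Hochberg over all genes, two-sided) with all 6 groups in the fit, after a run on simulated data. No detection values were used, and the number of arrays limits the precision. The p-values measure the spread between single mice. Plots were drawn with matplotlib 3.10.9. Intensities of the ileum and liver tables were not used for levels.

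The genes and lists were chosen with earlier results of these data known. Named genes are the 25 brightest and 10 dimmest, up to 4 bright and 2 dim members of a described list, the genes of largest (10) and smallest (5) SD at or above the median level, the 2 of smallest p and common reference genes, of which 1 was counted but is not reported here. Muc2, Lyz1, Fabp6, Anpep, Alb, Tlr1, Ascl2 and Sec61a1 were chosen after seeing their values. The alternatives changed the normalization, the choice of probe or spots, the filter on dim probes, the fit and the arrays kept.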

Additional observations from a re-analysis of the deposited data

Results flagged for a closer look

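Among the 4 control arrays, 1 array stood apart from the others where its gap to the nearest one, as a share of the whole range, exceeded Dixon's 95% critical value for 4 values. This was so for 12 of the 136 named genes compared and for 3 of the 47 lists. Chance alone gives about 1 in 20, but the count of genes cannot be set against it, since genes were named for a wide spread, a low level or the values seen, and genes that share an array are not independent.

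On Ctr2 replicate 2, Rn18s was lowest (share 0.926), as were Sec61a1 (0.891) and the ribosomal protein Rps21 (0.873), while Guca2a was highest (0.858). On Ctr2 replicate 1, Rn4.5s was lowest (0.914) and Ndufs8 highest (0.852). On Ctr1 replicate 1, Defa23 was lowest (0.855), as was Birc5 (0.835), although the 4 values of Birc5 lay between 9.75 and 9.97. On Ctr1 replicate 2, Tlr1 was lowest (0.961), as were Ascl2 (0.904) and Purb (0.868), 3 genes whose deposited intensities there were 300 or 301, at the lowest values of that array. Cat was highest on the same array (0.975), with 8.52 there and 7.78 to 7.79 on the others.

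Of the list medians, that of translation factors was highest on Ctr1 replicate 1 (0.916), with values between 10.36 and 10.51. That of mitochondrial ribosomal proteins was lowest on the same array (0.847), between 9.65 and 9.88. That of the citrate cycle was highest on Ctr2 replicate 2 (0.868), between 10.64 and 10.91. These ranges are narrow, and 3 of 47 lists is close to the 1 in 20 that chance alone gives.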

How the results depend on the processing

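The alternatives kept between 76 (mean over all probes of a gene) and 100 of the 100 brightest genes, with 88 kept where rows listing several genes were left out, a setting added after the data had been seen, and 93 to 97 kept when 1 control array was left out. Lists with a median percentile of 75 or more numbered 13 to 15, against 15. With the dimmest 25% of probes left out, which removes dim members, the median percentile moved beyond the spread of the arrays in 30 of 44 lists, most for interferon-induced genes (64.4, against 29.5), while mitochondrial ribosomal proteins stood at 40.1, against 53.7. Lists at 25 or less numbered 2, 1 with the dimmest 25% of probes left out, 3 with the values as deposited, and 1 to 3 when 1 array was left out. The median Pearson r of the pairs was 0.904, and 0.873 to 0.909 with 1 array left out, the lowest without Ctr2 replicate 1. For Ctr2 against Ctr1, 0 genes were called by limma in each setting that kept all 4 arrays, with 24 to 250 genes at an unadjusted p under 0.05. With 1 array left out, 0 to 35 genes were higher and 0 to 17 lower. With the replicate number as a block 0 genes were called, and 250 had an unadjusted p under 0.05. Deviations of arrays with the same number correlated with r = 0.37, a single observation, since with 2 arrays a group the deviations mirror each other. The numbers were not taken as a pairing of mice, since the labels give them to separate mice. Whether arrays of the same number shared a step of the array work was not tested. Most E1A spike-in control features were brighter on both arrays numbered 2. Spearman's rho was 0.934 and 0.924 for the pairs of the same number and at most 0.910 for the other pairs. Pearson's r separated them less, with 0.929 and 0.901 against 0.844 to 0.908. Signal over background was not assessed, and the lowest values limit what dim genes can show.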

Other observations

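The caecum table was set beside the ileum and liver tables over the 4 control arrays of each. Repeated spots under one probe name had a median SD of 0.143 in the caecum table (93 probes), 1.06 in the ileum table (184 probes) and 1.07 in the liver table (159 probes). Over shared probe names, the mean control level of the caecum correlated with that of the ileum with Spearman's rho = -0.032 (868 probes) and with that of the liver with rho = -0.043 (704 probes), while ileum and liver gave 0.564 (3684 probes). These are descriptions across probes.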
